A study of Papio papio with 23 samples.

Results

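Transcripts of 10 genes for complement components, receptors and regulators were followed in baboon whole blood. They were chosen by name: every probe whose gene name in the scanner files is C1QA, C1QB, C1QC, CFD, CFP, C3AR1, C5AR1, CR1, CD55 or CD59. Each of the 10 genes had 1 probe, out of 50599 probes for 36337 gene names on the array. Of these, 8, written from here on as the 8 tested genes, gave a signal well above background on at least 4 of the 23 arrays and entered a test over 21130 genes in all; CR1 and CD59 did not.

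Complement is a cascade of blood proteins that marks targets for clearance and calls in phagocytes. It is started by recognition molecules such as C1q, amplified on surfaces by the alternative pathway with factor D and properdin, and read by leukocytes through receptors for the fragments C3a, C5a and C3b. Host cells carry regulators, among them CD55 and CD59, that stop the cascade on their own surface, and in blood most of the receptors and several of the components are made by neutrophils and monocytes, while C1q is known mainly as a product of macrophages and dendritic cells.

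The blood came from adult male Papio papio baboons, with an average age of 8.1 years (± 3.3) in the labels. H2-3 day 1 and H2-3 day 2 are 5 baboons that later developed haematological acute radiation syndrome (HARS, the failure of blood cell formation after irradiation) of medium to severe degree, sampled 1 and 2 days after exposure. H1-2 day 1 and H1-2 day 2 are 4 baboons with a later HARS of low to medium degree, sampled on the same days. H0 is 5 baboons before irradiation. All irradiated animals had been anaesthetised and exposed to gamma rays from a cobalt source, to the total body or to part of it, at an equivalent whole-body dose of 2.5 or 5 Gy. Dose and field are given for the study and not for single animals, so a category can differ in either, and no source used here says if the H0 animals were later among those irradiated. Levels are log2 of the processed spot intensity minus the array's 75th percentile, so 0 is the brightness of the probe at that percentile, and the levels of different probes cannot be set against each other.

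Between 41.4% and 51.3% of probes were well above background on an array, and arrays of 1 group correlated at 0.936 to 0.981 over the tested genes. Erythroid markers, which whole blood should hold, had mean levels between 4.62 and 6.90. The arrays lay on 7 slides: H0 on slides 1 to 3, irradiated baboons of day 1 on slides 3 to 5, and those of day 2 on slides 6 and 7. Slide 3 was the only slide with both H0 and irradiated blood. Slide 1, with H0 baboons 1 and 2, was scanned on a day of its own, and slides 2 to 5 together on another. Slides 6 and 7 were also scanned on a day of their own, so for day 2 the scan and the sampling day cannot be told apart. Baboons 1 to 3 of H2-3 and 1 and 2 of H1-2 were hybridised on slides 3, 4 and 6, and baboons 4 and 5 of H2-3 and 3 and 4 of H1-2 on slides 5 and 7.

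The probes were designed on human transcripts, so a base that differs in the baboon can dim the spot. The sequences of 5 probes are shown because the results on C1QB, C1QC, properdin, C3AR1 and CD55 rest on 1 such 60-base probe each, with no second probe to set beside it. They are given as the scanner files list them, on the human build hg19.
C1QC (chr1:22974089-22974148, plus strand): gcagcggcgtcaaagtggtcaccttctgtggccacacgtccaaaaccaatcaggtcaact
C1QB (chr1:22987795-22987854, plus strand): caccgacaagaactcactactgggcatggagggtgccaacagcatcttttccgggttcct
CD55 (chr1:207510071-207510130, plus strand): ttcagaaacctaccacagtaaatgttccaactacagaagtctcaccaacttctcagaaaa
C3AR1 (chr12:8211348-8211407, minus strand): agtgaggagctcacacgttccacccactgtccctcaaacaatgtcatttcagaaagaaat
CFP (chrX:47483683-47483742, minus strand): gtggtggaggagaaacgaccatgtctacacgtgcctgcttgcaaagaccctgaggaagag

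The probes of the 3 C1q chains lie on chromosome 1. The share of G and C was 55% in those of C1QB, C1QC and CFP, against 45% for C3AR1 and 38.3% for CD55. Further probes lie at chr19:863247-863306 (CFD), chr19:47824501-47824560 (C5AR1), chr1:207813016-207813075 (CR1) and chr11:33724746-33724805 (CD59), and the CR1 probe is 303 kb from that of CD55. The position of the probes in exons or untranslated regions was not used here.

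One day after exposure, 7 of the 8 tested genes rose in the baboons with later H2-3 HARS relative to H0: 2 of the 3 C1q chains, factor D, properdin, both anaphylatoxin receptors and CD55, by 2.31-fold (C3AR1) to 6.7-fold (CFD). The eighth, C1QC, was 2.42-fold higher and missed the threshold (limma, Benjamini-Hochberg adjusted p = 0.0541). In the same test 15% of all 21130 genes rose and 28.4% were called in either direction. The median log2 fold change of the 8 tested genes was 1.63, against 0.14 over all genes. Blood is a mixture, so more cells of a type and more RNA per cell cannot be told apart in any of these values.

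**Figure D1:**
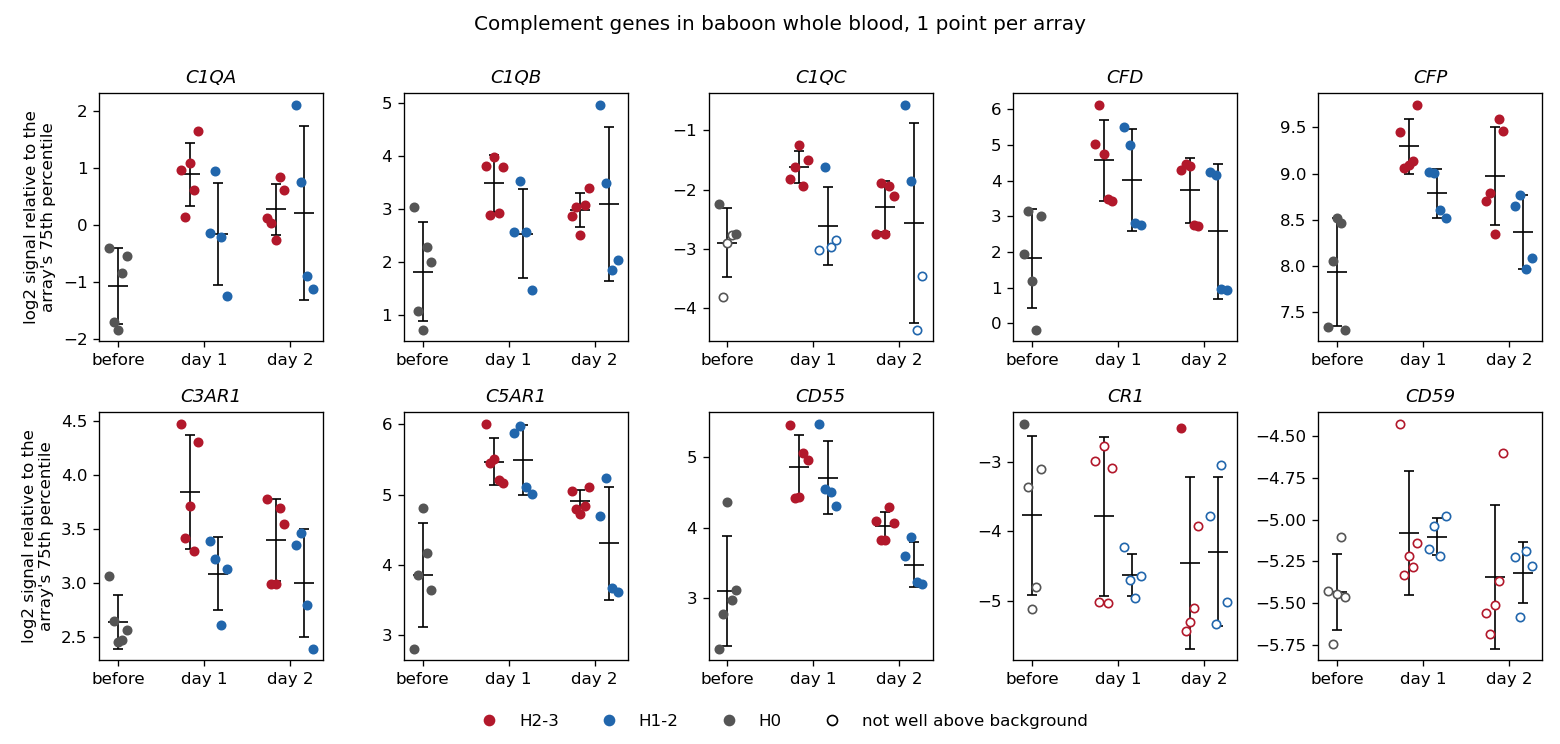
Level of each of the 10 complement genes on each array (log2 signal relative to the array's 75th percentile), before irradiation and on days 1 and 2, with H2-3 left of H1-2 within a day. Bars are the group mean ± SD, and open points are arrays where the probe was not well above background. On day 1 the 5 H2-3 arrays lie above all 5 H0 arrays for 7 of the 8 tested genes, and CR1 and CD59 stay near the floor.

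C1QA and C1QB encode chains of the C1q molecule, which binds antibody on a target and starts the classical pathway. C1QA had levels of 0.96, 0.15, 1.08, 0.61 and 1.65 in H2-3 day 1 blood, against -0.40, -1.71, -1.84, -0.84 and -0.54 in H0 blood. All 5 H2-3 arrays lay above all 5 H0 arrays, and the log2 fold change was 1.96 ± 0.50 (SE; 3.88-fold, limma adjusted p = 0.00593). C1QB had levels of 3.82, 2.89, 3.99, 2.93 and 3.78 in H2-3 day 1 blood, against 3.03, 1.08, 0.72, 2.28 and 2.00 in H0 blood. Here the groups overlapped, because H0 baboon 1 lay above H2-3 baboons 2 and 4, and the log2 fold change was 1.66 ± 0.51 (3.16-fold, limma adjusted p = 0.0178).

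C1QC, the third chain, was dim. Its levels were -1.82, -1.62, -1.24, -1.93 and -1.50 in H2-3 day 1 blood, where all 5 arrays were well above background, against -2.24, -3.83, -2.90, -2.76 and -2.75 in H0 blood, where 2 of 5 were. The groups did not overlap, and the log2 fold change was 1.27 ± 0.49 (limma adjusted p = 0.0541, and 0.0469 without H0 baboon 1).

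CFD encodes factor D, the protease that cleaves factor B and so forms the alternative-pathway convertase. It had the largest fold change of the 8 tested genes and the widest spread. CFD levels were 5.02, 6.13, 4.76, 3.48 and 3.44 in H2-3 day 1 blood, against 1.95, 3.15, 1.18, -0.19 and 3.02 in H0 blood. The groups did not overlap, although baboons 4 and 5 of H2-3 lay just above H0 baboon 2, and the log2 fold change was 2.75 ± 0.78 (6.7-fold, limma adjusted p = 0.0118).

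CFP encodes properdin, which holds the alternative-pathway convertase together and is stored and released by leukocytes. CFP levels were 9.45, 9.06, 9.09, 9.13 and 9.75 in H2-3 day 1 blood, against 7.34, 8.05, 8.51, 8.46 and 7.30 in H0 blood. The H0 arrays split into a pair near 7.3 and 3 arrays above 8, all below the H2-3 arrays, and the log2 fold change was 1.36 ± 0.28 (2.57-fold, limma adjusted p = 0.00112).

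C3AR1 and C5AR1 encode the receptors through which phagocytes sense the anaphylatoxins C3a and C5a. C3AR1 levels were 4.48, 3.41, 3.72, 3.30 and 4.31 in H2-3 day 1 blood, against 3.06, 2.65, 2.45, 2.47 and 2.56 in H0 blood. C5AR1 levels were 6.01, 5.45, 5.50, 5.21 and 5.17 in H2-3 day 1 blood, against 2.80, 3.86, 4.82, 4.17 and 3.65 in H0 blood. Neither gene's groups overlapped; C3AR1 was the tightest of the 8 tested genes in H0 (SD 0.25), whereas C5AR1 spread over 2 log2 units there. The log2 fold changes were 1.21 ± 0.26 for C3AR1 (limma adjusted p = 0.00173) and 1.61 ± 0.33 for C5AR1 (3.05-fold, limma adjusted p = 0.00124).

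CD55 encodes decay-accelerating factor, a lipid-anchored surface protein that takes the convertases apart. CD55 levels were 5.46, 4.42, 4.44, 5.06 and 4.96 in H2-3 day 1 blood, against 2.28, 2.78, 4.37, 2.97 and 3.11 in H0 blood. H0 baboon 3 was close to the lowest H2-3 array and the other H0 arrays were at least 1 log2 unit lower. The log2 fold change was 1.77 ± 0.31 (3.4-fold), with the smallest adjusted p of the 8 tested genes (limma, 0.000349).

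CR1, the receptor for C3b on leukocytes and red cells, was well above background on 2 of 23 arrays, H2-3 day 2 baboon 1 and H0 baboon 1, with levels between -5.43 and -2.45 over all arrays. CD59, the regulator that blocks the membrane attack complex, was well above background on 0 of 23 arrays, with levels between -5.74 and -4.43. Neither was tested, no fold is given, and nothing follows for the level of either transcript in blood, since 1 human probe stands for each.

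For 7 of the 8 tested genes, all but C1QB, every H2-3 day 1 array lay above every H0 array, which 9.57% of all genes showed. All 7 calls held when any 1 of these 10 arrays was left out. With slide as a block, where the comparison rests on slide 3 with 1 array of each group and 1.76% of all genes rose, 3 of the 7 calls were kept: C5AR1 (log2 fold change 2.37), CD55 (2.35) and CFP (2.14, limma adjusted p from 0.0324 to 0.0444). C1QA (1.50), C1QB (1.82), C3AR1 (1.92) and CFD (2.00) then had limma adjusted p from 0.0616 to 0.487.

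**Figure D2:**
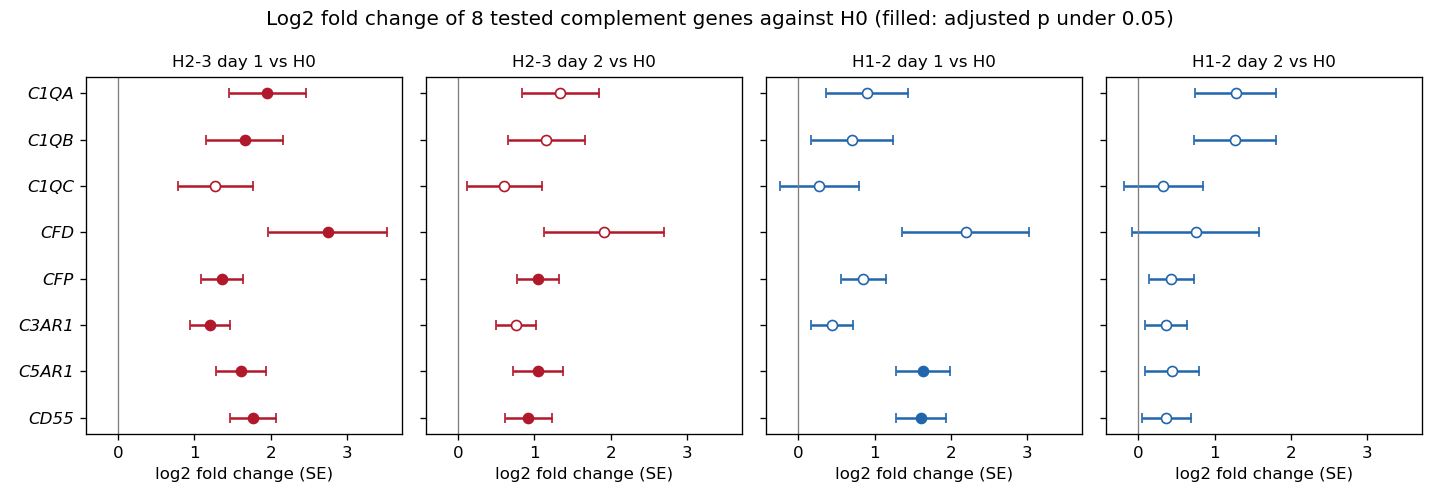
Log2 fold change (± SE) of the 8 tested complement genes against H0 in H2-3 and H1-2 on days 1 and 2; filled points passed an adjusted p of 0.05. Filled points number 7 in H2-3 day 1, 3 in H2-3 day 2, 2 in H1-2 day 1 and 0 in H1-2 day 2.

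On day 2 after exposure, 3 of the 8 tested genes rose in H2-3 blood relative to H0: properdin, C5AR1 and CD55. Of all genes, 10.3% rose and 14.8% were called in either direction, and the median log2 fold change was 1.04 for the 8 tested genes against -0.03 for all. CFP had levels of 8.70, 8.79, 8.35, 9.59 and 9.46 in H2-3 day 2 blood (log2 fold change 1.04 ± 0.28, limma adjusted p = 0.0192). C5AR1 had levels of 5.05, 4.79, 4.72, 4.84 and 5.11 (1.05 ± 0.33, limma adjusted p = 0.0394). CD55 had levels of 4.09, 3.82, 3.83, 4.30 and 4.07, all below H0 baboon 3 (0.92 ± 0.31, limma adjusted p = 0.0469). Each of these genes overlapped with H0, and the calls of C5AR1 and CD55 lay close to the threshold. CFP lost its call in 4 of 10 omissions of 1 array (H0 baboon 1 or 5, H2-3 baboon 4 or 5; limma adjusted p from 0.0501 to 0.0705). C5AR1 lost it in 7 of 10, all but H0 baboon 3 or 4 and H2-3 baboon 3 (0.0507 to 0.129), and CD55 in 9 of 10, all but H0 baboon 3 (0.0508 to 0.146).

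The other 5 genes were not called on day 2 in H2-3. C1QA had levels of 0.13, 0.04, -0.26, 0.84 and 0.61, and was the only one of the 8 tested genes with all 5 arrays above all H0 arrays, which 5.66% of genes showed (log2 fold change 1.34 ± 0.50, limma adjusted p = 0.0698). C1QB had levels of 2.87, 3.04, 2.51, 3.07 and 3.39 (1.16 ± 0.51, limma adjusted p = 0.112). C1QC had levels of -2.75, -1.88, -2.76, -1.95 and -2.12, well above background on all 5 arrays (0.61 ± 0.49, limma adjusted p = 0.376). All 3 C1q means were lower than on day 1, by 0.50 to 0.67 log2 units, which did not pass the test between the days given further on. C3AR1 had levels of 3.78, 2.99, 2.99, 3.69 and 3.55 (0.76 ± 0.26, limma adjusted p = 0.0515, and 0.0465 or 0.0384 without H2-3 baboon 2 or 3). CFD had levels of 4.31, 4.47, 4.41, 2.75 and 2.73 (1.91 ± 0.78, limma adjusted p = 0.0916), with baboons 4 and 5 again apart from the other 3.

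In the baboons with later H1-2 HARS, 2 of the 8 tested genes rose on day 1 relative to H0: C5AR1 and CD55. Of all genes, 4.18% rose and 8.59% were called in either direction; the median log2 fold change was 0.88 for the 8 tested genes and 0.09 for all. C5AR1 had levels of 5.88, 5.97, 5.11 and 5.01 in H1-2 day 1 blood, all above the 5 H0 arrays (log2 fold change 1.64 ± 0.35, 3.11-fold, limma adjusted p = 0.0148). CD55 had levels of 5.48, 4.55, 4.51 and 4.31, with baboon 4 below the highest H0 array (1.61 ± 0.32, 3.05-fold, limma adjusted p = 0.0141). Both calls were lost without H1-2 baboon 1 (1.51, limma adjusted p = 0.065, for C5AR1; 1.35, 0.0643, for CD55). No slide held both H0 and H1-2 blood, so with slide as a block the comparison runs through the H2-3 arrays of slides 3 to 5. Of H0, only baboons 3 to 5 shared a scan day with H1-2 day 1. With scan day as a block the log2 fold changes were 1.29 (limma adjusted p = 0.0837) for C5AR1 and 1.23 (0.0689) for CD55, where 0.0189% of all genes were called. With slide as a block they were 2.53 (0.145) for C5AR1 and 2.34 (0.18) for CD55, where 0.0426% were called.

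Among the genes not called in H1-2 day 1 blood, CFP came nearest, with levels of 9.02, 9.01, 8.60 and 8.51. All 4 lay above the 5 H0 arrays, but baboon 4 by less than the rounding, with 8.514 there and in H0 baboon 3. The log2 fold change was 0.85 ± 0.29 (limma adjusted p = 0.0685, and 0.0311 without H0 baboon 3). CFP and C5AR1 were the 2 of 8 tested genes with all 4 arrays above H0, which 4.99% of all genes showed. CFD had levels of 5.50, 5.01, 2.80 and 2.77, a pair above and a pair inside the H0 range (2.20 ± 0.83, limma adjusted p = 0.094). C3AR1, with levels of 3.39, 3.22, 2.60 and 3.13, had a log2 fold change of 0.45 ± 0.28 (limma adjusted p = 0.314). The C1q chains had log2 fold changes of 0.90 ± 0.53 for C1QA (levels -0.14, 0.94, -0.21 and -1.25), 0.71 ± 0.54 for C1QB (2.57, 3.52, 2.57 and 1.47) and 0.28 ± 0.52 for C1QC (-3.03, -1.62, -2.97 and -2.85, with baboon 2 alone well above background).

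On day 2 in H1-2 blood 0 of the 8 tested genes passed, as did 0% of the 21130 genes in limma, of which 2228 had an unadjusted p under 0.05. Among those were C1QA (1.28 ± 0.53, unadjusted p 0.0253, limma adjusted p = 0.406) and C1QB (1.27 ± 0.54, unadjusted p 0.0278, limma adjusted p = 0.416). C1QA had levels of 2.11, 0.75, -0.89 and -1.13, and C1QB of 4.97, 3.49, 1.86 and 2.04. Baboon 1 thus had the highest C1QA and C1QB of all 23 arrays, and its C1QC level of -0.56 was also the highest, against -1.86, -4.38 and -3.46 in the other 3. The remaining genes were nearer to H0: C5AR1 with 4.70, 5.24, 3.66 and 3.61 (0.45 ± 0.35), CD55 with 3.59, 3.87, 3.23 and 3.19 (0.37 ± 0.32), and CFP with 8.65, 8.77, 7.97 and 8.08 (0.43 ± 0.29). C3AR1 had levels of 3.35, 3.46, 2.80 and 2.38 (0.36 ± 0.28). CFD had levels of 4.25, 4.16, 0.95 and 0.95 (0.75 ± 0.83). The limma adjusted p of these genes and C1QC lay between 0.59 and 0.825.

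The order of the group means was the same for CFP and C3AR1: H2-3 day 1, H2-3 day 2, H1-2 day 1, H1-2 day 2 and H0, from high to low. CFP averaged 9.29 ± 0.30, 8.98 ± 0.53, 8.79 ± 0.27, 8.37 ± 0.40 and 7.93 ± 0.59 in that order (SD, n = 5, 5, 4, 4 and 5). C3AR1 averaged 3.84 ± 0.53, 3.40 ± 0.38, 3.08 ± 0.34, 3.00 ± 0.50 and 2.64 ± 0.25. Each step between neighbours was smaller than 1 SD of the larger spread or close to it. For C5AR1 and CD55 the day 1 groups of both categories came first, at 5.47 ± 0.34 in H2-3 and 5.49 ± 0.50 in H1-2 for C5AR1 and at 4.87 ± 0.44 in H2-3 and 4.71 ± 0.52 in H1-2 for CD55. The day 2 groups followed at 4.90 ± 0.17 in H2-3 and 4.30 ± 0.80 in H1-2 for C5AR1 and at 4.02 ± 0.20 in H2-3 and 3.47 ± 0.32 in H1-2 for CD55, above H0 at 3.86 ± 0.74 for C5AR1 and 3.1 ± 0.78 for CD55.

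The comparisons of H2-3 and H1-2 with H0 share the 5 H0 arrays, so the categories were also set against each other directly. On day 1, 0 of the 8 tested genes and 0% of all genes passed in limma, with 1224 genes under an unadjusted p of 0.05. CFP in H2-3 lay above CFP in H1-2 on all arrays, as 0.989% of genes did (0.51 ± 0.29, limma adjusted p = 1). C3AR1 had the smallest p of the 8 tested genes (0.76 ± 0.28, limma adjusted p = 0.531). The C1q chains had log2 fold changes of 0.95 to 1.05 with SE of 0.52 to 0.54. The value of C1QC rests in part on background, since its probe was well above background on 1 of 4 H1-2 arrays. C5AR1 (-0.03 ± 0.35) and CD55 (0.16 ± 0.32) were near 0. On day 2, again 0 of 8 and 0% passed (2062 genes under an unadjusted p of 0.05); the log2 fold changes lay between -0.11 (C1QB) and 1.16 (CFD) with SE of 0.28 to 0.83.

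Those day 2 values averaged over slides that differed. On slide 7, with baboons 4 and 5 of H2-3 and 3 and 4 of H1-2, the mean level was higher in H2-3 for 7 of the 8 tested genes, by 0.97 (CD55), 1.03 (C3AR1), 1.29 (C1QB), 1.34 (C5AR1), 1.50 (CFP), 1.74 (C1QA) and 1.79 (CFD). C1QC was well above background on both H2-3 arrays of that slide and on neither H1-2 array, so no size is given. On slide 6, with baboons 1 to 3 of H2-3 and 1 and 2 of H1-2, the differences were -1.46 (C1QA), -1.42 (C1QB), -1.25 (C1QC), -0.16 (C3AR1), -0.12 (C5AR1), -0.10 (CFP), 0.18 (CD55) and 0.19 (CFD). C1QA and C1QB therefore had opposite signs on the 2 slides, as did C3AR1, C5AR1 and CFP, whose slide 6 differences were small. C1QC was lower in H2-3 on slide 6 and well above background only in H2-3 on slide 7. CD55 and CFD were higher in H2-3 on both slides. In a fit to slides 5 and 7 alone, 6 of the 8 tested genes passed on day 2, all but C1QB and C3AR1 (limma adjusted p from 0.0067 to 0.0329; C1QC among them, with the H1-2 arrays below background), where 25.9% of all genes were called; in a fit to slides 4 and 6 alone 0 of 8 and 0% passed. On day 1 the slide 5 differences ran from 0.13 (C5AR1) to 1.86 (C1QA) and the slide 4 differences from -0.58 (CD55) to 0.90 (C1QC, not well above background in H1-2 baboon 1), with 0 of 8 past the threshold on either pair of slides (1.74% of genes called with slides 5 and 7, 0% with 4 and 6). Slides 5 and 7 held the same baboons, as did slide 6 and, among irradiated baboons, slides 3 and 4 together, so slide and animal cannot be told apart.

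**Figure D3:**
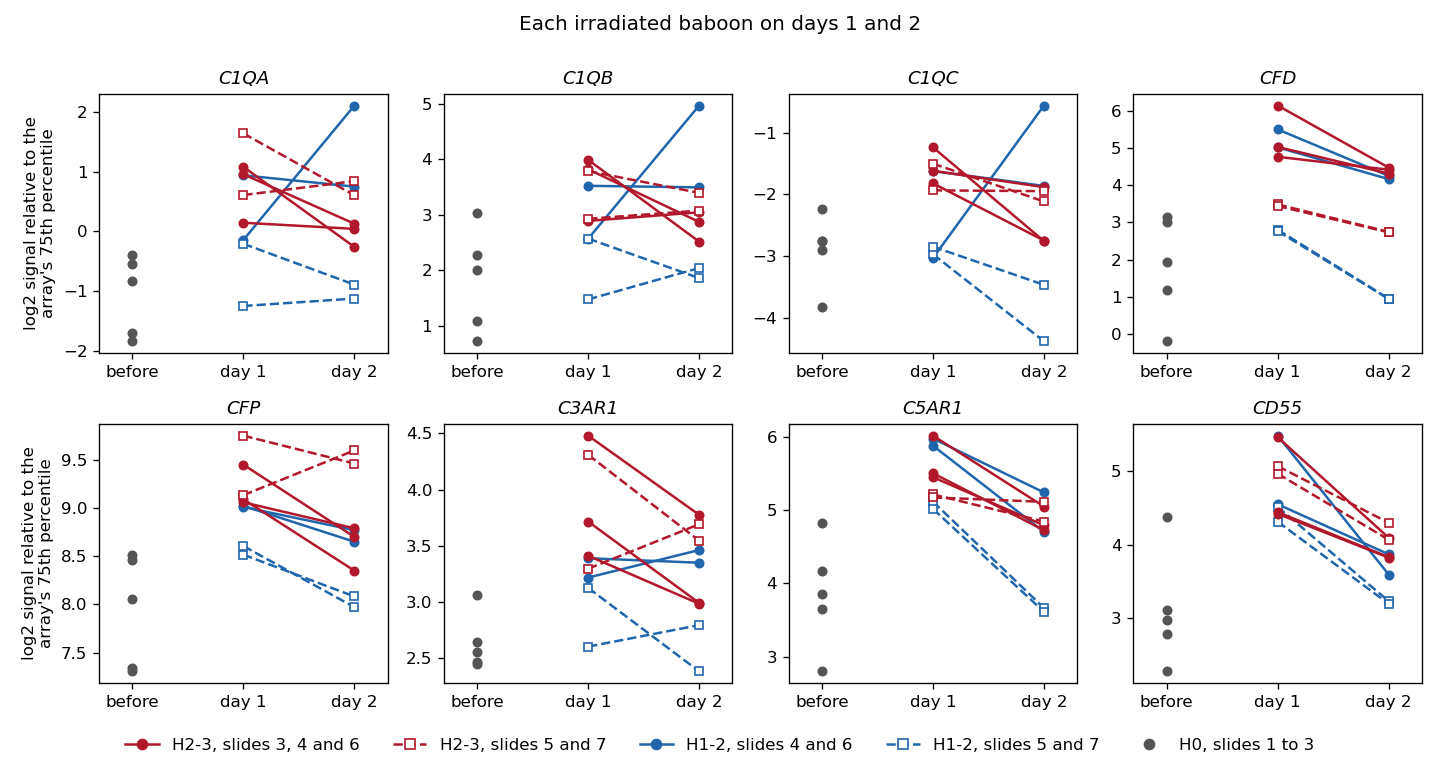
Level of the 8 tested genes in each irradiated baboon on days 1 and 2 (lines; H2-3 red, H1-2 blue), with the H0 baboons before irradiation (grey). Solid lines with filled points are baboons on slides 3, 4 and 6, dashed lines with open squares those on slides 5 and 7; CFD separates by slide in both categories on both days, and all 9 lines of CFD, C5AR1 and CD55 slope down.

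CFD was the only one of the 8 tested genes whose arrays split by slide without overlap in all 4 irradiated groups. In H2-3 day 1 its arrays on slides 3 and 4 lay between 4.76 and 6.13 and those on slide 5 between 3.44 and 3.48, a mean difference of 1.84. The difference was 1.66 in H2-3 day 2, 2.47 in H1-2 day 1 and 3.25 in H1-2 day 2. The 2 baboons of a category on slides 5 and 7 had nearly the same CFD level each time, for example 0.95 and 0.95 in H1-2 day 2. Within slides 5 and 7 the category difference of CFD was 0.68 on day 1 and 1.79 on day 2.

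On day 2, C5AR1, CD55 and CFD stood lower than on day 1 in all 9 irradiated baboons. The share of all genes lower in every baboon was not counted, so the counts of baboons only describe these genes. Over all genes the median log2 fold change between the days was -0.03 in H2-3 and -0.08 in H1-2. The day 2 minus day 1 difference of CD55 was -1.37, -0.60, -0.61, -0.77 and -0.90 in H2-3 and -1.89, -0.68, -1.28 and -1.12 in H1-2. That of C5AR1 was -0.97, -0.66, -0.78, -0.37 and -0.06 in H2-3 and -1.18, -0.73, -1.45 and -1.40 in H1-2. CFD differed by -0.35 to -1.67 in H2-3 and by -0.85 to -1.85 in H1-2. CFP was lower in 8 of 9 baboons, C1QA and C3AR1 in 6 and C1QB in 5. C1QC was lower in all 6 baboons where it was well above background on both days. H1-2 baboon 1 had increases of 2.26 (C1QA) and 2.40 (C1QB), and its C1QC was well above background on day 2 and not on day 1.

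All 5 day 2 arrays of H2-3 lay below its 5 day 1 arrays for C5AR1 and CD55, as for 2.84% of all genes, and all 4 of H1-2 for CD55, as for 5.37%. Without regard to the animal, 0 of the 8 tested genes passed between the days in H2-3, where 2.97% of all genes did, and 0 passed in H1-2, where 0% did (4957 genes under an unadjusted p of 0.05 in limma). With the baboon as a random block, CD55 fell by 0.85 ± 0.26 in H2-3 (limma adjusted p = 0.0349), where 9.24% of all genes fell, and in H1-2 CD55 fell by 1.24 ± 0.29 (limma adjusted p = 0.0355) and C5AR1 by 1.19 ± 0.31 (limma adjusted p = 0.041), where 2.08% did. With the baboon as a fixed block 0 of 8 passed in H2-3, with 2.85% of all genes called, and 0 of 8 in H1-2, with 0% called. The day difference itself did not pass between the categories for any of the 8 tested genes (limma adjusted p = 1 for each, 421 of all genes under an unadjusted p of 0.05).

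Across the 23 arrays C1QA and C1QB moved together, with a Pearson correlation of 0.96, and C1QC followed C1QA at 0.846 and C1QB at 0.841. C5AR1 and CD55 formed a second pair at 0.904, and C5AR1 and CFP correlated at 0.82. C1QB and CD55 were the least alike, at 0.294, followed by C1QC and CD55 at 0.353. These values describe arrays that share groups, slides and baboons, and no test was made of them.

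**Figure D4:**
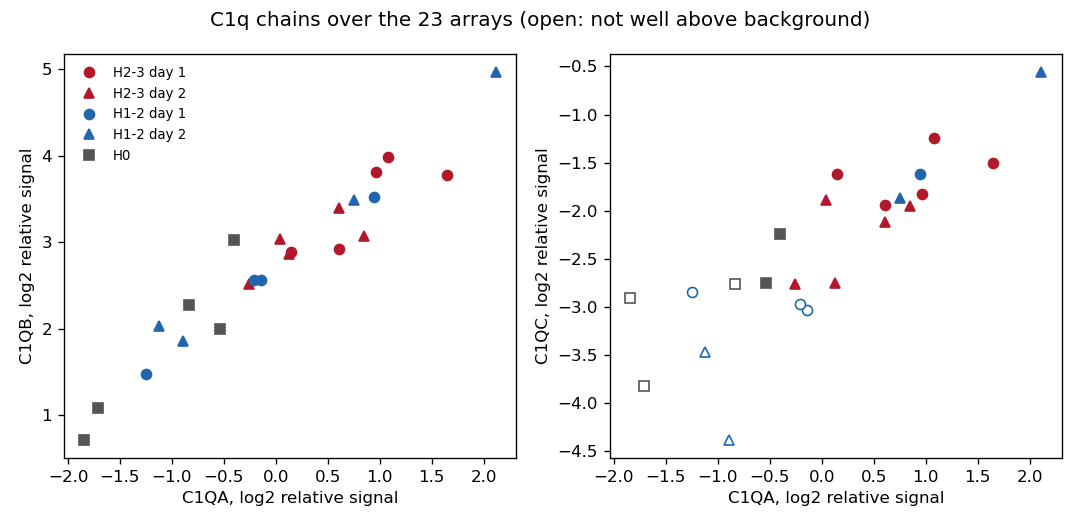
Level of C1QB (left) and C1QC (right) against C1QA on the 23 arrays, coloured by category, with circles for day 1, triangles for day 2 and squares for H0; open symbols are arrays where the gene on the vertical axis was not well above background. H1-2 day 2 baboon 1 is the highest array for all 3 chains, and C1QA and C1QB correlate at 0.96.

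Over all tested genes with a symbol, the pattern most like C1QA was that of C1QB, followed by GLT25D1 (0.873) and HPS1 (0.868), while C1QB was next most like FDPS (0.859) and ABI3 (0.841). C1QC was most like C1QA and C1QB, followed by ABI3 (0.786). C5AR1 was most like NIN (0.968), KDM6B (0.961) and PISD (0.961), and CD55 most like P2RY13 (0.971), a purine receptor gene, RGS19 (0.94) and TADA3 (0.938). CFP was most like RUFY1 (0.971), HK3 (0.965) and PSAP (0.963), CFD most like PREX1 (0.959), DSTNP2 (0.95) and LITAF (0.946), and C3AR1 most like FAM20C (0.906), SERPINB8 (0.895) and TMCO4 (0.869). All are Pearson correlations of levels over 23 arrays.

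A list of other complement genes held 51 names, with the second C5a receptor under both C5AR2 and its older symbol GPR77. Of these names 50, all but C5AR2, were on the array and 28 were tested. In H2-3 day 1 blood 11 rose, 1 fell and 16 did not pass, beside 15% and 13.5% of all genes that rose and fell. In H2-3 day 2 blood 9 rose and 0 fell, beside 10.3% and 4.48% of all genes. In H1-2 day 1 blood 3 rose and 0 fell, beside 4.18% and 4.42%. The list had a median log2 fold change of 0.60 in H2-3 day 1, under that of the 8 tested genes. Among those not tested, each well above background on at most 2 arrays, were C5, C6, C8B, C9, CFB, MBL2 and CRP. Other components of the list, among them C2, C4B and C8G, were well above background on all 23 arrays and did not pass in H2-3 day 1. C3 (log2 fold change 0.85 in H2-3 day 1) was also tested and did not pass.

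Several receptors for C3 fragments were among the genes that rose. VSIG4, a macrophage receptor for C3b, averaged 3.22 in H2-3 day 1 blood and -0.60 in H0 blood (log2 fold change 3.82 ± 0.58, 14.1-fold, limma adjusted p = 0.000135). ITGAM, the CD11b chain of complement receptor 3, averaged 6.38 in H2-3 day 1 blood and 4.41 in H0 blood (1.97 ± 0.35, limma adjusted p = 0.000408), and its partner chain ITGB2 (1.15 ± 0.23) and ITGAX (1.63 ± 0.37), of complement receptor 4, rose as well. CR2, the B-cell receptor for C3d, was the 1 gene that fell, with a mean of -4.14 in H2-3 day 1 blood, where 1 of 5 arrays was well above background, and -0.29 in H0 blood (limma adjusted p = 0.000876, 6.36-fold lower with the H2-3 arrays set at their detection floor). On day 2 CR2 was not called (limma adjusted p = 0.0722).

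The second C5a receptor, listed under its older symbol GPR77, was not well above background on any H0 array and was so on all 5 H2-3 day 1 arrays. With the H0 arrays set at their detection floor, it was 2.26-fold higher there (limma adjusted p of the fit = 0.000318). Set in the same way, it was 1.38-fold higher in H2-3 day 2 (0.00935), where 4 of 5 arrays measured it. In H1-2 day 1, where 2 of 4 arrays measured it, it was 1.13-fold higher (0.0269). Its probe passed the filter through irradiated arrays alone. The adjusted p values come from fits that use H0 values at background, so they do not test these folds. The floor is the lowest signal that counts as well above background on each of the dim group's arrays. A probe not well above background can lie above that floor, so these folds are not strict lower bounds. FCN1, the monocyte ficolin that starts the lectin pathway, rose by 1.59 ± 0.29 (limma adjusted p = 0.00047). THBD (1.93), PTX3 (1.56) and CD93 (0.98) also rose in H2-3 day 1.

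**Figure D5:**
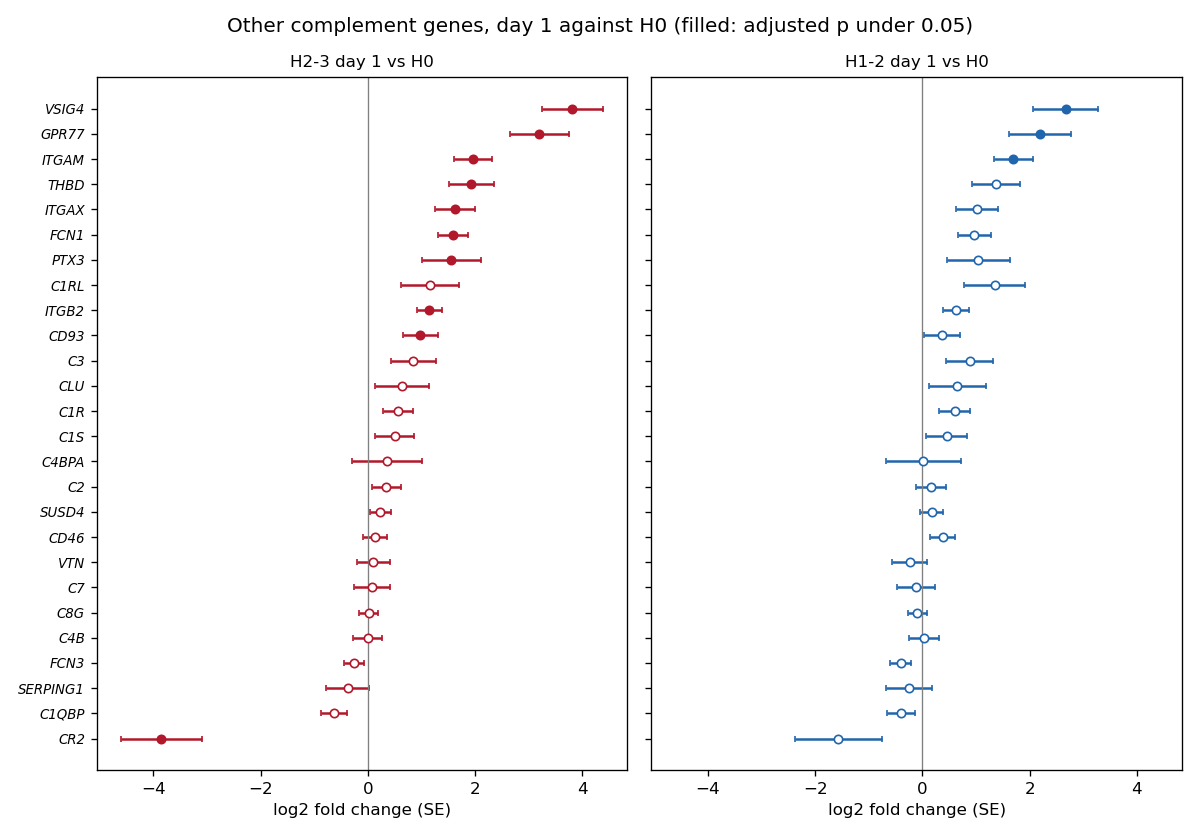
Log2 fold change (± SE) of 26 of the 28 other complement genes tested, in H2-3 day 1 (left) and H1-2 day 1 (right) against H0, ordered by the left panel; filled points passed an adjusted p of 0.05. VSIG4 heads both panels (3.82 and 2.68), and CR2 lies lowest in both, filled on the left and open on the right; its fitted values rest on 1 of 5 H2-3 and 2 of 4 H1-2 arrays well above background and are not sizes of change.

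GPR77, measured on 2 of 4 H1-2 arrays and on 0 of 5 H0 arrays, was called in H1-2 day 1 blood. With VSIG4 (2.68 ± 0.61, limma adjusted p = 0.0165) and ITGAM (1.70 ± 0.37, 0.0148) it made up the 3 that rose there. The count was 0 without H1-2 baboon 1, 1 without H1-2 baboon 2, 2 without H0 baboon 1, 4 or 5, and 8 without H0 baboon 3, and it was 0 with slide or scan day as a block or with the 2 groups alone. In H2-3 day 2 blood, where VSIG4 (2.83), ITGAM (1.71), FCN1 (1.39), ITGB2 (0.95), ITGAX (1.43), CLU (1.93) and GPR77 were among the genes that rose, the count fell to 6 without H2-3 baboon 4. In H2-3 day 1 it stayed between 9 and 13 whichever array was left out, and was 3 with slide as a block.

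Markers of blood cell types moved in the same comparisons as the complement genes. In H2-3 day 1 they stand beside 15% of all genes that rose and 13.5% that fell. Of 15 tested neutrophil markers, 15 rose in H2-3 day 1, and their mean level on an array lay between 4.31 and 4.97 there, against 1.25 to 4.02 in H0. Of 14 tested monocyte markers, 13 rose in H2-3 day 1, with mean levels of 4.85 to 5.48 against 2.98 to 4.17 in H0. Of 8 tested macrophage markers, 5 rose, with mean levels of -0.01 to 1.04 against -2.12 to -1.42 in H0. Among them were CXCR1 (2.33) for neutrophils, CD163 (1.86) for monocytes and MSR1 (2.62) for macrophages (limma adjusted p of 0.000468 or less). MSR1 was well above background on 3 of 5 H0 arrays (5.53-fold higher with the others set at their detection floor) and MRC1 on 1 of 5. The H0 means of the macrophage list thus rest in part on background. The macrophage receptor MARCO was well above background on all 5 H2-3 day 1 arrays and on 0 of 5 H0 arrays. With the H0 arrays set at their detection floor it was 38.1-fold higher (limma adjusted p of the fit = 7.08e-05). The macrophage markers CD5L and LYVE1 were not well above background on any array. VSIG4 and FCN1 are also in the macrophage and monocyte lists.

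In the same comparison 6 of 8 B cell markers, 9 of 10 T cell markers and 9 of 10 NK cell markers fell, with 0 rising in each list. In H2-3 day 2, 8 neutrophil, 8 monocyte and 6 macrophage markers rose and 8 B cell, 3 T cell and 2 NK cell markers fell. Of all genes 10.3% rose and 4.48% fell in H2-3 day 2, and 4.18% and 4.42% in H1-2 day 1. In H1-2 day 1, 10 neutrophil, 3 monocyte and 3 macrophage markers rose and 3 T cell and 5 NK cell markers fell, and without H1-2 baboon 1 the 3 counts of rising markers were 0. The neutrophil count in H1-2 day 1 was 0 to 6 in 7 of 9 omissions of 1 array, all but H1-2 baboon 3 (11) and H0 baboon 3 (13), and that of monocyte markers was 0 without H1-2 baboon 1 or 2 or H0 baboon 1, 4 or 5. The neutrophil count in H2-3 day 2 lay between 3 (without H0 baboon 1 or H2-3 baboon 4) and 11 (without H0 baboon 3). Over the same omissions the rising monocyte markers in H2-3 day 2 numbered 3 (without H2-3 baboon 4) to 8, the rising macrophage markers 3 (without H0 baboon 1) to 6, and the falling B cell markers 5 (without H2-3 baboon 4) to 8. The falling T cell markers numbered 0 to 6 in H1-2 day 1 and 0 to 4 in H2-3 day 2, and the NK cell markers 0 to 8 and 0 to 5. Of 9 tested nonclassical monocyte markers 1 rose and 1 fell in H2-3 day 1. Of 9 platelet markers 1 rose (0 or 1 with 1 array left out), and of 8 eosinophil and basophil markers 1 rose. These counts of 1 lay near the 15% and 13.5% of all genes that rose and fell there. Of 9 erythroid markers 0 passed. In H2-3 day 2, 5 platelet markers rose, a count that lay between 0 (without H2-3 baboon 4) and 7 (without H0 baboon 3) with 1 array left out. The part of these cell markers in the levels of the complement genes was not tested.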

How the data were processed

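RNA from PAXgene whole blood was labelled with Cy3 (100 ng per sample) and hybridised to human Agilent 1-colour arrays, 1 array per sample, 23 in all, per the labels' protocols. The deposited scanner files hold spot intensity, read and background-corrected with Agilent Feature Extraction 10.7.3.1 per the submitters' processing notes and the file headers. The authors' deposited value table gives these arrays as log2 values (39637 of its 39726 probes matched), with its centring not given in the sources used here, and served as an alternative.

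Log2 of the processed intensity was averaged over the spots of a probe, and the 75th percentile of the non-control probes of each array was taken off. Probes well above background on at least 4 arrays were kept (27215), and the brightest kept probe stood for its gene (21130 genes). The 5 group means were fitted over all 23 arrays with limma 3.58.1 in R 4.3.3, two-sided, with Benjamini-Hochberg adjustment over all genes at 0.05. The 10 complement genes, the list of other complement genes and the marker lists were chosen with earlier results of these data known. Named were all 10 genes, up to 8 listed genes per comparison by adjusted p or past the threshold in H2-3 day 1, and the 3 genes most like each. As exceptions to this rule, some genes of the list of other complement genes are not reported here, nor is a probe sequence. Gene names are those of the array design. Titles number the baboons of a category on both days, which pairs the arrays. The deviations from the group mean of the 2 arrays of a baboon correlated at 0.054 to 0.437 in H2-3 and 0.057 to 0.39 in H1-2. The highest correlation with another baboon of the category exceeded that value for all 4 H1-2 baboons (0.408 to 0.617) and for H2-3 baboon 1 (0.134), so the pairing rests on the titles. The correlation within a baboon used for the random block was 0.2521.

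The number of arrays limits the precision. The test was checked on simulated data with known changes. Alternatives covered the scaling, background, filter, probe summary, the deposited table, baboon, slide and scan day as blocks, pairs of groups alone and each array left out.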

Additional observations from a re-analysis of the deposited data

Results flagged for a closer look

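C1QC in H1-2 day 1 blood stood apart in 1 baboon of 4: baboon 2 had a level of -1.62, and the nearest of the others was at -2.85 and the farthest at -3.03. Baboon 2 was also the 1 array of that group where the C1QC probe was well above background. CD59 in H2-3 day 1 blood had a level of -4.43 in baboon 1, with the other 4 between -5.33 and -5.14. The CD59 probe was not well above background there or on any other array, so this value carries no level of the transcript. Over the 50 sets of values looked at, 10 genes in 5 groups, chance alone marks about 1 in 20.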

How the results depend on the processing

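Of the values of single genes under an alternative, 1493 stayed on their side of the threshold, 45 lost a call and 22 gained one. Only the 7 genes called in H2-3 day 1, the 3 in H2-3 day 2 and the 2 in H1-2 day 1 had a call to lose. Most of the 1493 were thus called in neither setting, and 710 of them came from leaving 1 array out. The sign turned in 49 of the 1493, all of them values past the threshold in neither setting, and in 0 of the others. The count of 7 in H2-3 day 1 was 3 with slide as a block, and 7 to 8 with 1 array left out. The count of 3 in H2-3 day 2 was 1 under quantile normalisation, a percentile taken over detected probes, the deposited table, no filter on dim probes, slide as a random block (added after seeing the data) or the 2 groups alone, and 0 to 3 with 1 array left out. The count of 2 in H1-2 day 1 was 0 with slide or scan day as a block or the 2 groups alone, and 0 to 3 with 1 array left out. The 0 in H2-3 vs H1-2 on day 2 was 6 with slides 5 and 7 only (added after seeing the data), and the 0 between the days in H2-3 was 1 there. The replicate block with baboon as a random block gave 1 between the days in H2-3 and 2 in H1-2 and changed no other count by over 1.5 times; over all genes it called 3406 against 628 in H2-3 and 902 against 0 in H1-2. The share of higher among all calls was 52.6% in H2-3 day 1, 69.7% in H2-3 day 2 and 48.6% in H1-2 day 1, and 34.8%, 43.6% and 32.4% in the same order with a percentile taken over detected probes, which lowered the median of all genes by 0.19, 0.16 and 0.12; under quantile normalisation it was 43.4%, 60.6% and 34.5%. Slide or scan day as a fixed block could not be fitted for day 2 against H0 or day 1. The cause of the differences between settings was not tested. Signal over background limits C1QC, CR1 and CD59.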
